A study of Mus musculus with 6 samples.

Results

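The genes described here encode collagens, laminins, integrins and a few other matrix glycoproteins, and they were taken by symbol from a table of raw counts per gene. A gene belonged if its symbol began with Col and a digit, with Lam, a chain letter and a digit, or with Itga or Itgb, or if it was Fn1, Hspg2, Nid1, Sparc, Agrn or Fbn1. This gave 74 of the 15565 genes in the table. They comprised 33 collagen chains, 9 laminin chains, 15 integrin alpha and 8 integrin beta chains and the 6 glycoproteins. The remaining 3 genes share only the letters of the pattern: Col4a3bp encodes a ceramide transfer protein, Itgb1bp1 a protein that binds the tail of integrin beta 1, and Itgb3bp a centromere protein.

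RNA came from hepatocytes of C57BL/6 mice aged 2 months, freed by collagenase perfusion of the liver. They were divided by sorting into TERT(High) cells and TERT(Low) cells. Both populations were taken from each of 3 mice, which gave 6 libraries in 2 groups of 3. All mice had the genotype Tert(CreERT2/+); R26(LSL-Tomato/+), so cells of both groups carried a tamoxifen-inducible Cre at 1 Tert allele and a Cre-dependent red reporter at 1 R26 allele. Sequencing was of polyadenylated RNA, and library totals ranged from 53.6 to 76.2 in units of 1e6 counts. Levels below are counts per 1e6 counts after TMM scaling (CPM), and a group is summarised by its mean ± SD (n = 3). Fold changes are TERT(High) over TERT(Low) on the log2 scale, with their standard error (SE). Adjusted p is from edgeR's quasi-likelihood test over the 13288 genes that passed a filter on low counts, and a gene was called at an adjusted p under 0.05. Tert itself had 38, 33 and 30 counts in the TERT(High) libraries, in the order of mice 1, 2 and 3 that is kept throughout, and 21, 21 and 12 in the TERT(Low) libraries.

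The extracellular matrix is the protein network around cells. Collagens form its fibrils and sheets, laminins, type IV collagen, nidogen, perlecan and agrin build basement membranes, and integrins are paired alpha and beta receptors that tie the matrix to the cytoskeleton. Hepatocytes face the matrix of the space of Disse, which has no continuous basement membrane, and they secrete plasma fibronectin into the blood. Most fibrillar collagen of the liver is attributed to stellate cells and portal fibroblasts, and much of the type IV collagen, perlecan and laminin to stellate and endothelial cells.

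Sequence at the starts of 4 members is shown because 3 of them were called higher in TERT(High) cells and the other, Col4a1, shares its start region with one of these. It is taken from the RefSeq promoter table on GRCm38.p6 (mm10). Col4a1 and Col4a2 lie head to head on chromosome 8 and are read from opposite strands. The first base of Col4a2 (11312805) and that of Col4a1 (11312826) in this table bracket 22 bases that belong to both transcripts, chr8:11312805-11312826, shown on the strand of Col4a2. For Hspg2 the 198 bases before the gene were taken, chr4:137468553-137468750, plus strand. For Itga1 the 250 bases before the start were taken, chr13:115101965-115102214, minus strand. Capitals mark the GC box GGGCGG, and both strands were searched.
Col4a1/Col4a2: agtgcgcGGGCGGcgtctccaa
Hspg2: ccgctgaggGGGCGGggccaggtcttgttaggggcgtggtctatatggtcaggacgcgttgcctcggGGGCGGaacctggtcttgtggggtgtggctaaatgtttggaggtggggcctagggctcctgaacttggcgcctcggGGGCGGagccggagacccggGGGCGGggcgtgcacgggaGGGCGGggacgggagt
Itga1: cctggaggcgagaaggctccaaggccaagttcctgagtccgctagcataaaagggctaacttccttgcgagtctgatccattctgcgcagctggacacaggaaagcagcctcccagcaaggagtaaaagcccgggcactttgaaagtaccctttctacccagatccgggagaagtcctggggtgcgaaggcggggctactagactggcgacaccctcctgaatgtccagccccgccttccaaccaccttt

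The Hspg2 stretch held 5 GC boxes, all on the strand of the gene, and the Itga1 stretch held 0. Within 250 bases before the start, 32.7% of all 32851 promoters in the table held this motif on either strand, as did 32 of the 60 promoters of members (53.3%). A CCAAT box (CCAAT) stood in 33.8% of all promoters and in 14 of the 60 (23.3%). A TATA box (TATAAA) stood in 12.4% of all and in 3 of the 60. These are matches of letters and were not tested as binding sites. The 32851 promoters were not limited to genes of the count table, as the members are, so the sets are unlike and the shares are a description.

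By edgeR 4 members were called higher in TERT(High) cells and 0 lower. The 4 were Itga1, the collagen-binding integrin chain alpha 1, Col4a2, a chain of basement membrane type IV collagen, Hspg2, the basement membrane proteoglycan perlecan, and the ceramide transporter Col4a3bp. Of all genes tested 4.43% were called higher and 3.71% lower, and 52 of the members passed the filter and were tested. With unadjusted p under 0.05 there were 13 higher members and 2 lower, against 16.3% and 12.4% of all genes. DESeq2 called 11 members higher, against 11.5% of all genes, and 0 lower, against 9.77%, and limma-voom called 2 higher, against 4% of all genes, and 0 lower, against 3.49%. With the mouse as a block edgeR called 5 members higher, against 5.43% of all genes. In the authors' deposited table, which lists 28 members, 10 had an adjusted p under 0.05 and a positive fold change, against 15.8% of the genes listed there, and 0 had a negative one, against 13.4%. Without TERT(High) of mouse 1 edgeR called 5 members and 937 genes of the whole table higher. Without any other single library, or without both libraries of any mouse, it called 0 genes of the whole table in either direction, members included. In these fits 8 to 14 members were higher at unadjusted p under 0.05. The share of all tested genes at that threshold was not counted for them. DESeq2 and limma-voom were not refitted on fewer libraries.

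Itga1 (Entrez gene 109700, chromosome 13, 114958079 to 115101964) pairs with integrin beta 1 in the alpha 1 beta 1 receptor for collagen and laminin, an integrin of hepatocytes. Its level was 7.56, 8.08 and 9.95 CPM in TERT(High) cells and 3.17, 3.61 and 2.88 CPM in TERT(Low) cells. Every TERT(High) value lay more than 2-fold above the TERT(Low) value of its mouse, and the groups were narrow. The means were 8.53 ± 1.26 and 3.22 ± 0.365 CPM (SD, n = 3), a ratio of 2.65 and a log2 fold change of 1.40 (SE 0.19, edgeR adjusted p = 0.0277). Its transcript is long, at 10967 nt, and a correction for transcript length and GC content, given further on, left 0.52 on the log2 scale (SE 0.31, adjusted p = 0.514). Pelo, a gene inside the Itga1 locus, shares 1804 bases of it and had 598 to 1268 counts per library, so reads there are uncertain without a known strand setting.

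Hspg2 (Entrez gene 15530, chromosome 4, 137468751 to 137570630) had the largest difference of the 4 called members. TERT(High) libraries held 1.88, 5.96 and 7.33 CPM and TERT(Low) libraries 0.654, 1.22 and 0.474 CPM. The groups did not overlap, and TERT(High) of mouse 1 was the lowest of its group. The means of 5.06 ± 2.84 and 0.783 ± 0.390 CPM differed 6.45-fold, with a log2 fold change of 2.69 (SE 0.60, edgeR adjusted p = 0.0457). The ratio within a mouse ran from 2.87 in mouse 1 to 15.4 in mouse 3. Corrected for length and GC content the log2 fold change was 1.74 (SE 0.60, adjusted p = 0.287).

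Col4a2 (Entrez gene 12827, chromosome 8, 11312805 to 11449287) and Col4a1 (Entrez gene 12826, chromosome 8, 11198423 to 11312889) encode the chains of the common type IV collagen trimer, and their genes overlap by 85 bases at the starts shown above. Col4a2 was at 4.18, 11.3 and 9.39 CPM in TERT(High) cells and at 2.82, 1.97 and 1.40 CPM in TERT(Low) cells. Col4a1 was at 3.05, 13.1 and 6.47 CPM against 2.77, 1.93 and 1.16 CPM. Neither gene's groups overlapped, but the libraries of mouse 1 were close together, with a within-mouse ratio of 1.48 for Col4a2 and 1.10 for Col4a1. In mice 2 and 3 the ratios were 5.77 and 6.69 for Col4a2 and 6.78 and 5.59 for Col4a1.

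Col4a2 had a log2 fold change of 2.00 (SE 0.44, edgeR adjusted p = 0.0440) and Col4a1 of 1.94 (SE 0.58, adjusted p = 0.0826), so of this pair Col4a2 alone was called. With the mouse as a block Col4a2 was not called (edgeR adjusted p = 0.0677). Per kilobase of transcript, the level of Col4a1 was 0.672 to 1.12 times that of Col4a2 over the 6 libraries. Col4a5, a chain of other type IV trimers, was at 2.11, 3.32 and 2.16 CPM against 2.03, 1.18 and 1.35 CPM, and Col4a3 at 1.10 ± 0.318 against 0.879 ± 0.168 CPM. The values of Col4a5 did not overlap between groups and those of Col4a3 did. Col4a4 had 2 to 11 counts per library and was not tested.

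**Figure D1:**
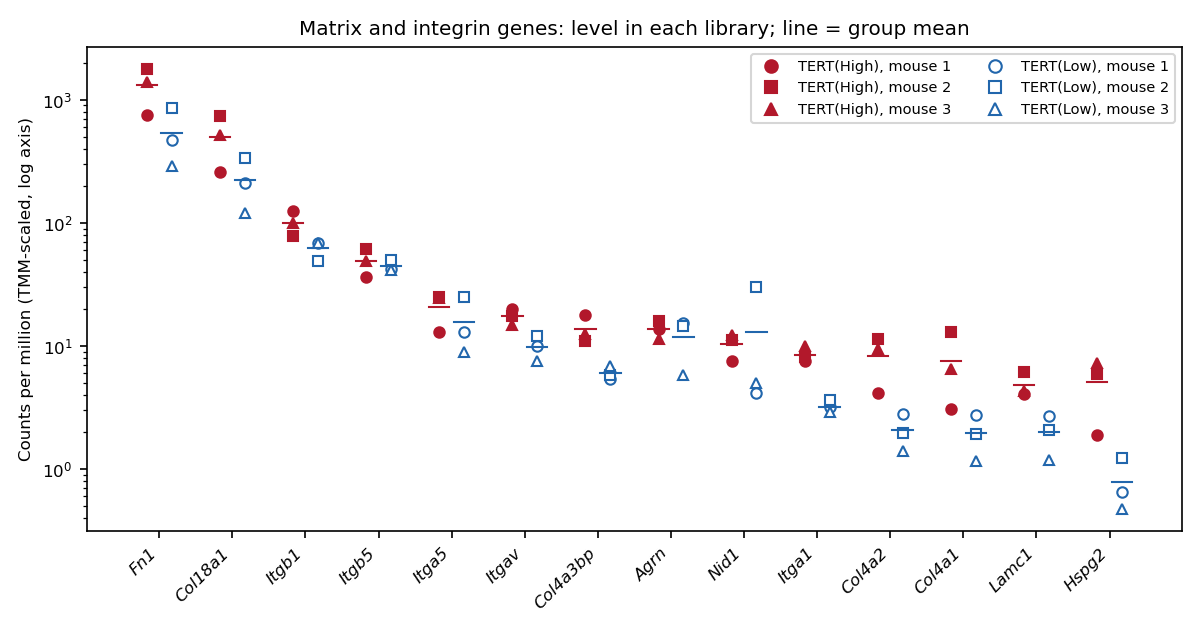
Level of 14 abundant or called members in each library, in CPM on a log axis. Filled red points are TERT(High), open blue points TERT(Low), the shape gives the mouse and the line the group mean. Fn1 and Col18a1 stand far above the rest, and the groups do not overlap for Itga1, Col4a1, Col4a2, Lamc1, Hspg2, Itgav, Itgb1 and Col4a3bp.

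Fibronectin and collagen XVIII made up most of the RNA of these genes. Fn1 and Col18a1 together held 64.0% to 88.7% of the summed CPM of all 74 members in a library. Fn1 (Entrez gene 14268, chromosome 1, 71585473 to 71653280) encodes fibronectin. It was at 758, 1778 and 1404 CPM in TERT(High) cells and at 472, 863 and 288 CPM in TERT(Low) cells. In every mouse the TERT(High) value was the higher one, yet TERT(High) of mouse 1 lay below TERT(Low) of mouse 2, so the groups overlapped. Its log2 fold change was 1.28, with SE 0.47 and an edgeR adjusted p of 0.133. In the authors' deposited table Fn1 had a log2 fold change of 1.19 (SE 0.26) and an adjusted p of 1e-04.

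Col18a1 (Entrez gene 12822, chromosome 10, 77052178 to 77166530) encodes a multiplexin collagen, the precursor of endostatin, which hepatocytes are known to make. Its levels were 260, 734 and 513 CPM in TERT(High) cells and 211, 335 and 119 CPM in TERT(Low) cells. The order of the libraries within each group was that of Fn1: mouse 2 the highest in both, mouse 1 the lowest in TERT(High) and mouse 3 the lowest in TERT(Low). The fold change of Col18a1 was 1.18 on the log2 scale, with SE 0.49 and an edgeR adjusted p of 0.169. Col15a1, the other multiplexin, was at 3.04, 3.60 and 4.62 CPM against 2.29, 2.23 and 1.21 CPM with no overlap of the groups (log2 fold change 0.97, SE 0.32, adjusted p = 0.0992). Col13a1, a transmembrane collagen, was at 0.604, 0.793 and 0.566 CPM against 0.272, 0.458 and 0.247 CPM, also without overlap.

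Per kilobase of transcript the mean level in TERT(High) cells was 158 CPM for Fn1 and 89.8 for Col18a1. The integrin chains with the highest levels were Itgb1 at 26.4, Itgb5 at 16.0, Itga5 at 4.74 and Itgav at 2.47 CPM per kilobase. Of the called members, Itga1 at 0.778 and Hspg2 at 0.357 CPM per kilobase were far lower. In TERT(Low) cells Fn1, Col18a1, Itgb1, Itgb5, Itga5 and Itgav stood in the same order, at 65.1, 39.7, 16.3, 14.6, 3.58 and 1.40 CPM per kilobase. Itgb1 and Itgb5 were not in the same order in every library: in TERT(Low) of mouse 2 Itgb5 was at 16.3 and Itgb1 at 12.8 CPM per kilobase.

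Among integrins the beta 1 chain, which pairs with most alpha chains, was the most abundant per kilobase. Itgb1 (Entrez gene 16412, chromosome 8, 128685654 to 128733579) was at 124, 77.6 and 99.5 CPM in TERT(High) cells and at 68.5, 48.8 and 69.2 CPM in TERT(Low) cells. The groups did not overlap and the within-mouse ratio was 1.44 to 1.82, the log2 fold change being 0.69 (SE 0.23, edgeR adjusted p = 0.103). Itgav, the alpha chain of receptors for vitronectin and for latent TGF-beta, was at 19.8, 17.6 and 14.8 against 9.99, 12.1 and 7.51 CPM. Its groups did not overlap either (log2 fold change 0.82, SE 0.22, adjusted p = 0.0651). With the mouse as a block Itgav and Itgb1 were called, at edgeR adjusted p of 0.0455 and 0.0450. Corrected for length and GC content Itgav had a log2 fold change of 0.16 (SE 0.37) and Itgb1 of 0.39 (SE 0.19).

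Itgb5, the partner of alpha v in a vitronectin receptor, was at 36.6, 61.1 and 49.3 CPM in TERT(High) cells and 42.3, 49.7 and 41.7 CPM in TERT(Low) cells, with overlapping groups. Itga5, which forms the fibronectin receptor with beta 1, had 797, 1510 and 1422 counts against 952, 1318 and 470, or 20.8 ± 6.74 against 15.7 ± 8.46 CPM. The within-mouse ratio was 1.003 in mouse 1, 0.991 in mouse 2 and 2.74 in mouse 3, so the populations were nearly equal in all mice but mouse 3. Itga7, an alpha chain of laminin receptors, was at 5.14, 7.76 and 7.07 against 7.04, 8.52 and 4.34 CPM and Itga3 at 3.52 ± 1.44 against 1.98 ± 0.522 CPM, with overlap in both. Itga9, a receptor chain for tenascin and osteopontin, was at 1.03, 1.22 and 2.16 CPM against 0.695, 0.516 and 0.759 CPM, and its groups did not overlap (log2 fold change 1.16, SE 0.40, edgeR adjusted p = 0.110).

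Integrin chains of leukocytes had few counts. Itgal, the alpha chain of LFA-1, had 43, 44 and 137 counts in TERT(High) cells and 35, 19 and 32 in TERT(Low) cells. Itgb2, its beta partner, had 25, 24 and 71 counts against 18, 16 and 22. In both genes TERT(High) of mouse 3 was the highest library. It was so for the summed level of 10 macrophage markers, at 108 CPM against 17.2 to 51.9 CPM in the other libraries. It was so too for 4 lymphocyte markers of few counts, at 1.70 CPM against 0.0545 to 0.522 CPM. The 51.9 CPM of macrophage markers were in TERT(Low) of mouse 3, which was second for Itgb2 in CPM but not for Itgal. The part of macrophage or lymphocyte RNA in these differences was not tested. Itgae, the alpha E chain of T cells in epithelia, had 11, 9 and 10 counts against 19, 44 and 18 and was not called (log2 fold change -1.51, SE 0.62, adjusted p = 0.166). Itga2b had 12 to 22 counts per library. Itgam had 1 to 22, with the 22 in TERT(High) of mouse 1.

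Of 9 laminin chains 7 passed the filter and 0 were called by edgeR. By unadjusted p under 0.05, 2 were higher and 0 lower, against 16.3% and 12.4% of all tested genes. DESeq2 called 1 laminin chain higher and 0 lower, against 11.5% and 9.77% of all tested genes, and limma-voom 0 in either direction. Lamc1, the gamma 1 chain of most laminins, was the most abundant per kilobase. It stood at 4.06, 6.14 and 4.34 CPM in TERT(High) cells and at 2.72, 2.06 and 1.20 CPM in TERT(Low) cells, without overlap (log2 fold change 1.28, SE 0.35, edgeR adjusted p = 0.0665). Lama4, a chain of vascular laminins, had 14, 26 and 41 counts against 10, 4 and 10 (1.74, SE 0.66, adjusted p = 0.138). Lama3 was at 3.18, 2.76 and 1.68 CPM against 1.91, 1.64 and 0.911 CPM and Lamb3 at 0.392, 1.42 and 0.789 CPM against 0.586, 0.554 and 0.550 CPM, with overlap in both. Lama2 had 0 to 6 counts and was not tested.

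**Figure D2:**
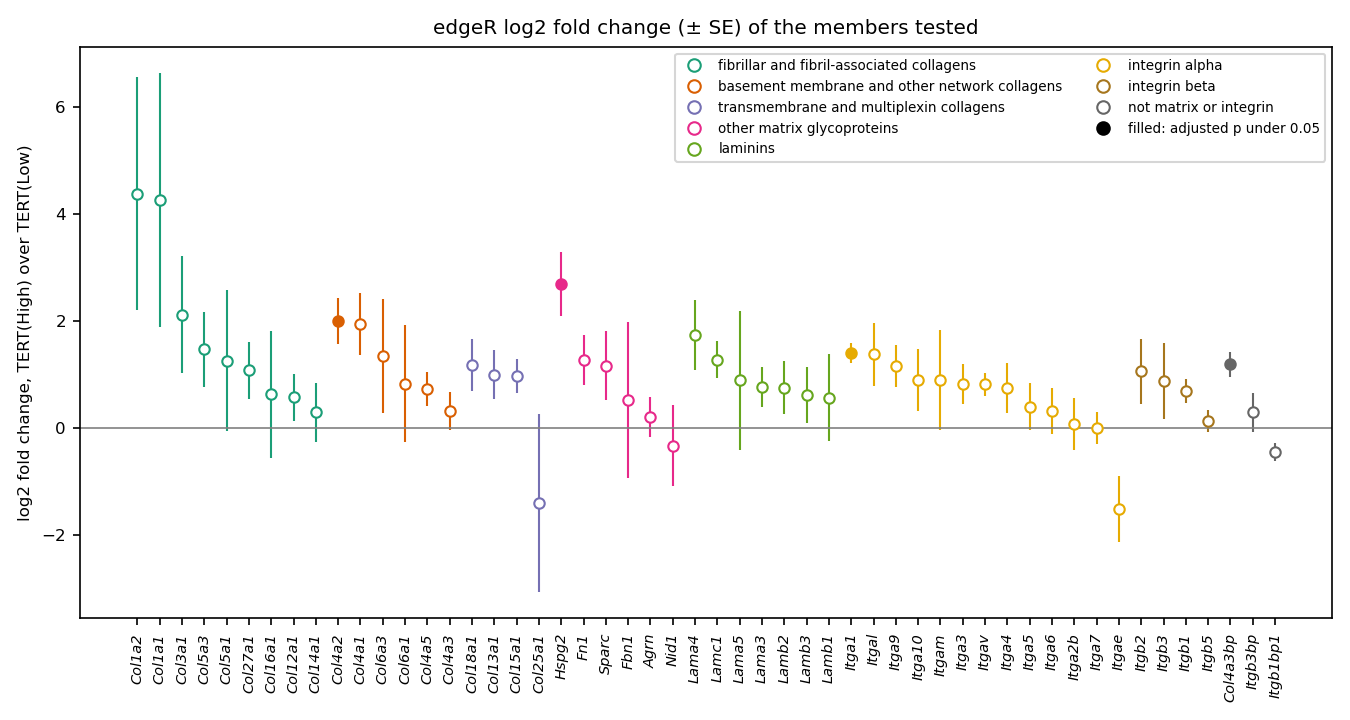
Log2 fold change of TERT(High) over TERT(Low) from edgeR, with bars of 1 SE, for the 52 members that passed the filter, coloured by class. Filled points are the 4 genes called at an adjusted p under 0.05. Col1a1 and Col1a2 have the largest fold changes and also the widest errors.

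Of the 6 glycoproteins edgeR called 1 higher, Hspg2, and 0 lower, against 4.43% and 3.71% of all tested genes. At unadjusted p under 0.05, 2 were higher and 0 lower, against 16.3% and 12.4%. DESeq2 called 2 higher, Hspg2 and Fn1, and 0 lower, against 11.5% and 9.77%. Limma-voom called 0 in either direction, against 4% and 3.49%. Sparc is described with the fibrillar collagens. Nid1, nidogen of basement membranes, was at 7.61, 11.2 and 12.4 CPM in TERT(High) cells and 4.16, 30.0 and 5.01 CPM in TERT(Low) cells. TERT(Low) of mouse 2 was the highest of all 6, and without it the log2 fold change went from -0.33 (SE 0.76) to 1.19. Agrn, the basement membrane proteoglycan agrin, was at 13.6, 16.1 and 11.5 CPM against 15.4, 14.5 and 5.77 CPM, with overlapping groups (0.21, SE 0.37, edgeR adjusted p = 0.746). Fbn1, the microfibril protein fibrillin, had 11, 1 and 13 counts against 19, 0 and 1 and gave no stable estimate (0.53, SE 1.45).

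For 16 of the 52 tested members all 3 TERT(High) values lay above all 3 TERT(Low) values, against 17.5% of all tested genes, and for 2 they lay below, against 15.9%. The 2 were Itgae and Itgb1bp1, the latter at 8.52, 8.79 and 10.3 CPM against 10.6, 13.2 and 13.8 CPM (log2 fold change -0.45, SE 0.17, edgeR adjusted p = 0.146). The log2 fold change was above 0 for 48 of the 52, against 49.2% of all tested genes, and its median was 0.86 against -0.01. The filter lets pass a gene that is high in 1 group alone, so these counts describe the tested members only. Over all 74 members the mean CPM was higher in TERT(High) cells for 65 (87.8%), against 48.2% of all genes in the table. For 13 of the 65, which were 12 collagens and Itgb2l, more than 50% of the CPM came from 1 library. Of the 22 members left out of the test, 6 had at most 10 counts in every library, and the highest count of any of them in a library was 220.

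Col4a3bp (Entrez gene 68018, chromosome 13, 96542709 to 96640167) was taken in by its symbol alone. It carries ceramide from the endoplasmic reticulum to the Golgi apparatus. Its levels were 17.8, 10.9 and 12.6 CPM in TERT(High) cells and 5.41, 5.77 and 6.87 CPM in TERT(Low) cells, without overlap (log2 fold change 1.20, SE 0.23, edgeR adjusted p = 0.0348). Corrected for length and GC content it was 1.16 (SE 0.24, adjusted p = 0.183). The centromere gene Itgb3bp was at 0.979, 0.958 and 1.06 CPM against 0.559, 0.783 and 1.10 CPM.

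Several endothelial markers were also higher in TERT(High) cells. Of 10 such markers 3 were called higher in TERT(High) cells and 0 lower by edgeR, against 4.43% and 3.71% of all tested genes. At unadjusted p under 0.05 it was 7 and 0, against 16.3% and 12.4%. By DESeq2 it was 6 and 0, against 11.5% and 9.77%, and by limma-voom 2 and 0, against 4% and 3.49%. Corrected for length and GC content, as given further on, the median log2 fold change of the markers went from 1.26 to 0.95. Their summed level was 38.4, 61.0 and 72.1 CPM in TERT(High) cells and 28.6, 32.6 and 28.2 CPM in TERT(Low) cells. No marker of this list was at 0 in any library. Ptprb, a phosphatase of the endothelium, had a log2 fold change of 2.25 (SE 0.37) and Kdr, the VEGF receptor, of 1.37 (SE 0.19), each with an edgeR adjusted p of 0.0277. Lyve1, a hyaluronan receptor of liver sinusoids, was called as well, at 1.46 (SE 0.32). Clec4g, a lectin of liver sinusoids, was at 7.07, 8.11 and 11.1 against 8.77, 8.65 and 10.3 CPM, and Egfl7 at 1.60, 2.06 and 2.40 against 3.07, 3.19 and 2.52 CPM. The within-mouse ratio of Hspg2, Col4a2 and Ptprb was smallest in mouse 1. This was not particular to these genes. It held for Fn1 (1.61, 2.06 and 4.87) and Col18a1 (1.23, 2.19 and 4.30) as well. Itga1 (2.38, 2.24 and 3.45) and the marker Kdr had their smallest ratio in mouse 2. The part of endothelial RNA in the differences of Hspg2, Col4a1, Col4a2, Lamc1, Lama4 and Itga1 was not tested, and in sorted populations fewer cells of a type cannot be told apart from less RNA per cell.

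**Figure D3:**
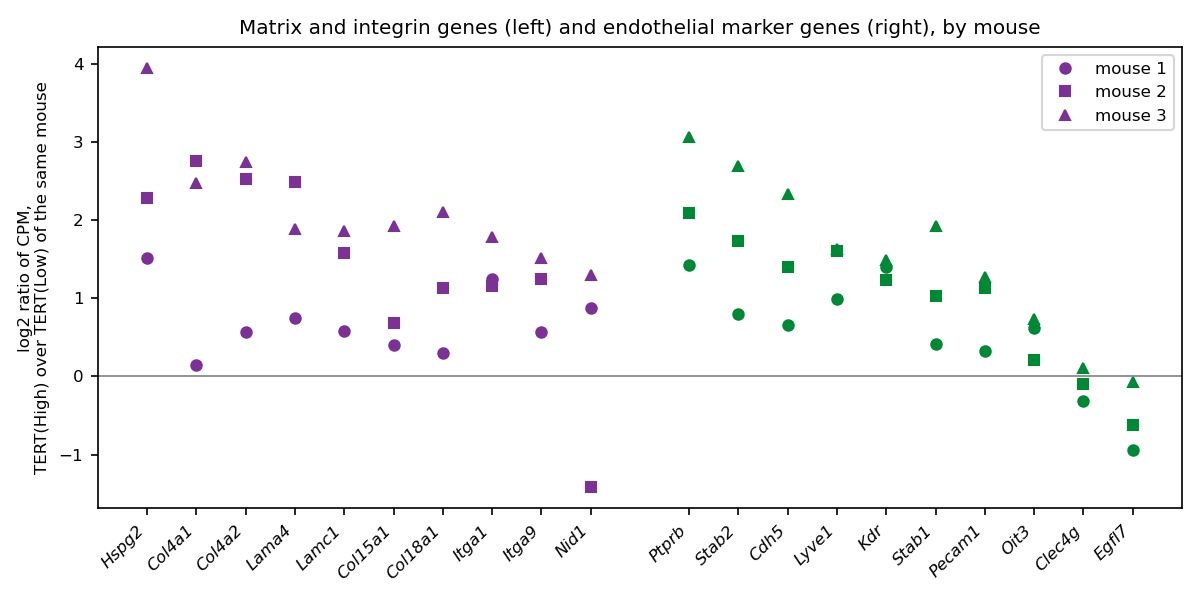
Log2 ratio of CPM between TERT(High) and TERT(Low) of the same mouse, 1 point per mouse, for matrix and integrin genes on the left and the 10 endothelial markers on the right. Mouse 1 has the smallest ratio for Hspg2, Col4a1 and Col4a2, and mouse 2 for Itga1 and Kdr. Clec4g and Egfl7 lie near or below 0 while Ptprb lies above it in all 3 mice.

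Of 6 tested stellate cell markers edgeR called 0 in either direction, against 4.43% of all tested genes higher and 3.71% lower. At unadjusted p under 0.05 it was 0, against 16.3% and 12.4%. DESeq2 called 0, against 11.5% and 9.77%, and limma-voom 0, against 4% and 3.49%. So few markers cannot be set apart from all genes by these counts. Their summed level was 12.4, 3.63 and 6.62 CPM in TERT(High) cells and 7.78, 4.58 and 4.34 CPM in TERT(Low) cells. TERT(High) of mouse 1 was the highest and TERT(High) of mouse 2 the lowest. Reln alone made up 7.98 of the 12.4 CPM in TERT(High) of mouse 1 and 5.04 of the 7.78 CPM in TERT(Low) of mouse 1. Dcn, Des, Lrat and Ngfr were also highest in TERT(High) of mouse 1. Cygb, Hand2 and Pdgfrb were highest in TERT(Low) of mouse 1, Colec11 in TERT(Low) of mouse 3 and Ecm1 in TERT(High) of mouse 3. Portal fibroblast markers summed to 3.50 to 8.58 CPM and cholangiocyte markers to 6.92 to 18.3 CPM. The 18.3 CPM were in TERT(High) of mouse 1, where Spp1 (osteopontin) alone was at 10.8 CPM, against 0.706 to 2.42 CPM in the others. Sox9, of the same list, was at 0.783 CPM there and at 0.736 to 2.12 CPM in the others. The 8 hepatocyte markers were present in every library, with a summed level of 109700 to 132500 CPM.

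Most of these genes have long transcripts, and long transcripts were higher in TERT(High) libraries across the whole table. The median transcript was 5706.5 nt for the tested members and 2962.5 nt for all tested genes, and 33 of the 52 members lay in the longest of 5 equal classes of genes by length, from 4906 nt upwards. In that class the median log2 fold change was 0.97 for the members and 0.65 for all genes. In the next class, from 3469 to 4905 nt, it was 0.66 for 10 members and 0.28 for all genes. When the trend of counts with length and GC content was taken out of every library, edgeR called 0 genes of any kind at an adjusted p under 0.05. By unadjusted p under 0.05 there were 7 higher members and 1 lower of the 52. The share of all tested genes at that threshold was not counted for the corrected fit, so these numbers are a description. DESeq2 and limma-voom were not run with this correction. The median of the members was then 0.60, with 42 of 52 above 0, against -0.01 for all genes. For the 13 integrin alpha chains the median went from 0.82 to 0.16, and for the 6 tested basement membrane and network collagens from 1.09 to 0.98. The trend with length differed between the TERT(High) and TERT(Low) libraries, and its part in the differences of the members cannot be told apart from the group.

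**Figure D4:**
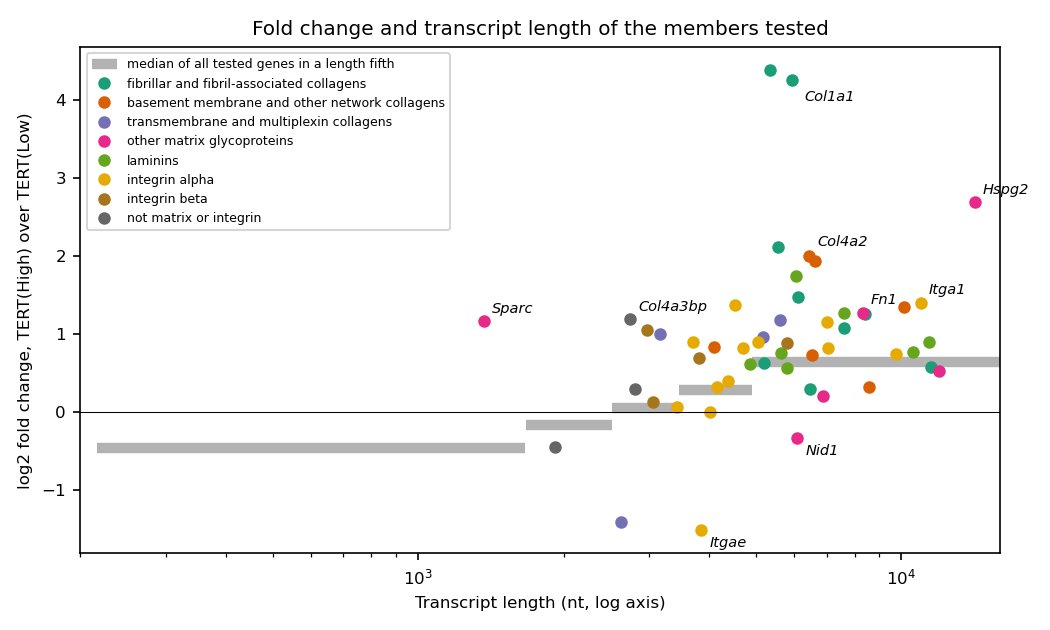
Log2 fold change of the tested members against transcript length (log axis), coloured by class, with grey bars for the median of all tested genes in each of 5 classes of length. The longest class goes on beyond the axis. Hspg2, Itga1, Col4a2 and Fn1 lie above the bar of the longest class at 0.65, and Nid1 below it.

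Type I collagen and several other fibrillar collagens were counted mostly in 1 library. For 15 of the 74 members (20.3%) more than 50% of the CPM summed over the 6 libraries came from a single library, against 7.48% of all genes in the table. For 13 of these 15 it was TERT(High) of mouse 1, which led 0.977% of all genes in this way, and 12 of the 13 were collagens. Col1a1, the alpha 1 chain of type I collagen of bone, skin and scars, had 7758 counts in TERT(High) of mouse 1 and 63 and 10 in mice 2 and 3. In TERT(Low) cells it had 47, 6 and 314 counts. Col1a2, its partner chain, had 6447, 56 and 22 counts against 52, 13 and 220. That library held 94.1% of the CPM of Col1a1 and 94.2% of that of Col1a2, and TERT(Low) of mouse 3 came next for both genes.

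The edgeR log2 fold change was 4.26 for Col1a1 (SE 2.38, adjusted p = 0.294) and 4.39 for Col1a2 (SE 2.18, adjusted p = 0.243), the largest of the members tested and neither called. Without TERT(High) of mouse 1 they were -1.93 and -1.45, so the sign turned with that library. In the authors' deposited table the log2 fold change was 0.49 for Col1a1 (SE 0.35) and 0.59 for Col1a2 (SE 0.37), with adjusted p of 0.295 and 0.226. DESeq2 as run here gave 4.24 (SE 2.25) and 4.37 (SE 2.04). The deposited estimates are therefore not the same measure as those given here, and the cause of the difference was not tested. Per kilobase the ratio of Col1a1 to Col1a2 was 1.09 in TERT(High) of mouse 1 and 1.29 in TERT(Low) of mouse 3, and 0.410 to 1.01 in the other libraries, where counts were few.

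Other collagen chains were led by the same library. Col5a2, of the type V collagen that nucleates fibrils, had 220 counts in TERT(High) of mouse 1 and 3 to 18 in the others. Col11a1 and Col11a2, of the type XI collagen of cartilage and bone, had 82 and 161 counts there and 0 to 10 and 0 to 16 in the others. Col3a1 had 212 counts against 10 to 23, Col22a1 41 against 0 to 4, Col5a1 85 against 2 to 39, Col6a2 48 against 1 to 16 and Col6a3 41 against 2 to 11. Col8a1 had 20 counts against 0 to 3, and Col8a2 and Itgb2l had only 8 and 11 counts even there. Itgb8 was led by TERT(Low) of mouse 1 instead, with 14 counts there and 0 to 4 in the others.

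Sparc, the collagen-binding glycoprotein osteonectin, was at 30.9 CPM in TERT(High) of mouse 1 and at 5.24 and 8.05 CPM in mice 2 and 3, against 5.93, 6.07 and 7.66 CPM in TERT(Low) cells. That 1 library stood apart, and the other 5 lay within a narrow band. The log2 fold change of 1.17 (SE 0.64, edgeR adjusted p = 0.287) became -0.03 without it. Not all collagens behaved so: Col12a1 had 103 counts there and 35 to 81 in the others, Col14a1 9 to 18 counts in every library, and Col27a1 was at 2.48, 3.04 and 5.49 against 2.26, 0.668 and 2.26 CPM.

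Most bone genes were led by the same library. The list of these genes was written after the collagen counts had been seen, so its values are a description. Bglap and Bglap2, near-identical copies of osteocalcin whose reads are uncertain one by one, had 668 and 475 counts in TERT(High) of mouse 1, 35 and 30 in TERT(Low) of mouse 3 and 0 to 12 in the other libraries. Ibsp, bone sialoprotein, had 75 counts against 0 to 4, and Sp7, the osteoblast transcription factor osterix, had 26 counts against 0. Mmp13, a collagenase, had 82 counts against 0 to 2, and Ctsk, the protease cathepsin K of osteoclasts, 150 against 2 to 18. Acp5, the acid phosphatase of osteoclasts and macrophages, was lowest in that library, at 107 CPM against 132 to 180 CPM in the others. Runx2, an osteoblast transcription factor, was not led by that library, with 9 counts there and 11 in TERT(Low) of mouse 2. Neutrophil markers summed to 8.01, 5.66 and 2.25 CPM in TERT(High) cells and 0.313, 1.39 and 1.59 CPM in TERT(Low) cells. TERT(High) of mouse 1 was the highest and TERT(High) of mouse 2 came next. The listed bone matrix and osteoblast genes summed to 22.6 and 0.215 CPM in these 2 libraries. Elane, of the neutrophil list, was highest in TERT(Low) of mouse 2. Erythroid markers summed to 206, 23.7 and 17.5 CPM in TERT(High) cells and 61.0, 56.7 and 39.8 CPM in TERT(Low) cells, so TERT(High) of mouse 1 stood far above the others. In this list the globin Hba-a1 was at 64.6 CPM there and 2.02 to 15.3 CPM elsewhere, while Alas2, the heme synthesis enzyme of red cell precursors, was highest in TERT(Low) of mouse 1. The counts of Hba-a1 and Hba-a2 were identical, so reads of these copies are uncertain. The source of the bone-related RNA in that library was not tested.

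**Figure D5:**
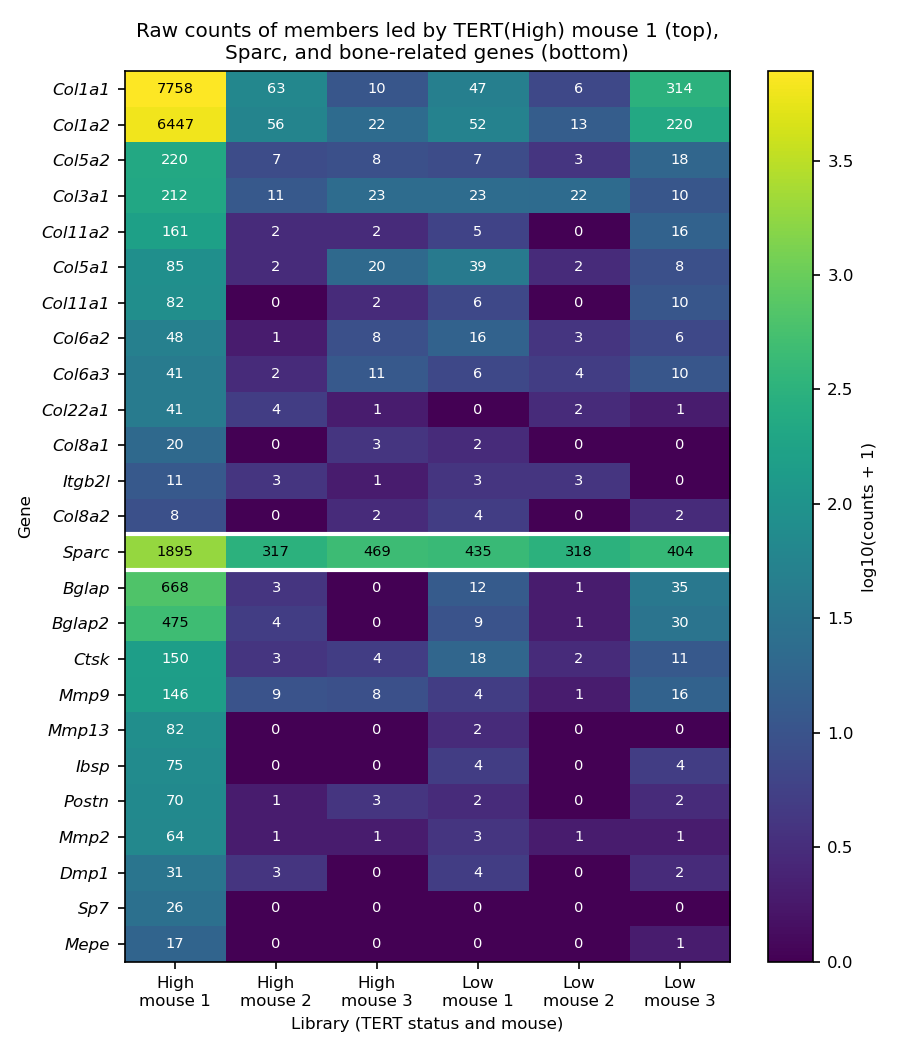
Raw counts in each library (number in the cell, colour on a log10(counts + 1) scale) for the 13 members with more than 50% of their CPM in TERT(High) of mouse 1, for Sparc, and for bone-related genes chosen after the data were seen. Col1a1 has 7758 counts and Bglap 668 in TERT(High) of mouse 1, and in both genes TERT(Low) of mouse 3 comes second with 314 and 35.

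Some members of low count followed other libraries. Col25a1, a transmembrane collagen, had 0, 1 and 13 counts in TERT(High) cells and 27, 0 and 14 in TERT(Low) cells. Gpm6a, a marker of mesothelial cells, had 5, 4 and 232 counts and 622, 2 and 231, so the same 3 libraries were high in both genes. Upk3b, another mesothelial marker, had at most 9 counts and was not high in those libraries. Msln and Wt1, also on the mesothelial list, are not in the count table. Thy1, a portal fibroblast marker, was high in the same libraries as Col25a1, with 6, 7 and 98 counts against 317, 0 and 76. Entpd2, another portal fibroblast marker, had 132 to 266 counts in every library. Cd34, of the same list, had 17, 11 and 34 counts against 35, 12 and 16. Eln and Fbln2 had at most 14 and 7 counts, and Eln was highest in TERT(High) of mouse 1. The part of mesothelial or fibroblast RNA in Col25a1 was not tested.

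Other genes of the matrix and its receptors, and those that link integrins to actin, are read against the 4.43% of all tested genes called higher and 3.71% called lower. By unadjusted p under 0.05 these shares were 16.3% and 12.4%, by DESeq2 11.5% and 9.77%, and by limma-voom 4% and 3.49%. Of 20 tested genes of collagen processing and secretion 1 was higher and 0 lower by edgeR, with 1 lower by unadjusted p under 0.05 and by DESeq2. The higher gene was Mia3, which loads collagen and other bulky cargo at exit sites of the endoplasmic reticulum, at 28.2, 46.1 and 59.2 CPM against 7.37, 6.19 and 8.94 CPM (log2 fold change 2.57, SE 0.31, edgeR adjusted p = 0.0274). P4hb, the disulfide isomerase subunit of collagen prolyl hydroxylase, was at 1670 ± 56.8 against 2155 ± 189 CPM (-0.37, SE 0.14, adjusted p = 0.150). Of 10 tested proteases and inhibitors 2 were higher, the sheddases Adam9 at 1.47 (SE 0.27) and Adam10 at 0.96 (SE 0.20). Among 11 other matrix receptors Rpsa was lower, at 429 ± 30.2 against 754 ± 88.4 CPM (-0.82, SE 0.15, adjusted p = 0.0340), a ribosomal protein also known as a laminin receptor.

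The proteins that link integrins to actin had 0 of 25 genes called by edgeR, with 8 higher and 0 lower by unadjusted p under 0.05. DESeq2 called 4 of them higher and 0 lower, and limma-voom 0 in either direction. Their median log2 fold change was 0.60 and 20 of the 25 were above 0. Actn4, the actin crosslinker alpha-actinin 4, was at 80.5 ± 39.9 against 43.6 ± 14.5 CPM. Tln1, the integrin activator talin, was chosen after its values were seen and was at 5.39, 34.1 and 35.8 CPM in TERT(High) cells and at 5.31, 4.64 and 2.81 CPM in TERT(Low) cells (2.56, SE 0.69, edgeR adjusted p = 0.0672). In mouse 1 the populations were nearly equal, and in mice 2 and 3 they were far apart. Parva, a scaffold of the same complexes, was at 54.2 ± 10.4 against 35.8 ± 3.39 CPM (0.60, SE 0.19, adjusted p = 0.0904). Of 11 tested other matrix proteins 0 were called by edgeR, 3 were higher and 0 lower by unadjusted p under 0.05, DESeq2 called 2 higher and limma-voom 0. The most abundant were plasma proteins of hepatocytes, such as vitronectin (Vtn) at 3139 ± 551 against 4046 ± 844 CPM and the fibrinogen chain Fgb at 3272 ± 791 against 3043 ± 609 CPM.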

How the data were processed

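Polyadenylated RNA of 6 libraries was analysed. The deposited counts are whole numbers of reads for each gene in each library, unscaled, and per the file headers genes carry an Entrez number and a symbol. The submitters' processing notes name TopHat2 2.0.13, Trim Galore 0.4.0, mm10 and DESeq2. How reads were counted, with which strand setting and annotation, is not given in the sources used here. In the authors' deposited table the signal column is DESeq2's baseMean, the log2 columns are the fold change and its SE, the fold column is its linear ratio, the score column is the test statistic, and the p-value columns hold p and adjusted p.

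The whole table was fitted with edgeR 4.0.16 in R 4.3.3 (filterByExpr by group, TMM, robust quasi-likelihood, Benjamini-Hochberg adjusted p under 0.05). SE is the absolute log2 fold change over the square root of F. DESeq2 1.42.0, limma-voom (limma 3.58.1), other scalings and filters, left-out libraries and a length and GC correction were alternatives; the correction removed each library's trend (natural splines, 4 degrees of freedom each) as offsets. Fits were tested on simulated data with no mouse effect and no trend with length. Its spread between libraries was below the 40.7% (common biological coefficient of variation, group alone) found here. It was a check of the code and does not give the rate of wrong calls in these data. Both populations came from the same mouse, so mouse numbers pair libraries: within a mouse, the deviations from the group mean of both libraries correlated at -0.089, 0.733 and 0.601 for mice 1, 2 and 3. The test ignores this, and a mouse block was an alternative. Lengths are from GENCODE M21 (transcript with the longest coding sequence), coordinates from RefSeq GRCm38.p6, which matched all 74 members.

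Members and lists were chosen with earlier results of these data known. Values in every library are given for called members, the 3 most abundant of each class, the 6 glycoproteins and members led by 1 library; from pathway lists, the 2 largest called changes or 2 of the most abundant genes. Tln1, the bone genes and the single cell type markers named were picked after their values were seen. The values of 1 member are not reported here.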

Additional observations from a re-analysis of the deposited data

How the results depend on the processing

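The number of members called higher was 4, and 3 to 6 with a mouse block, 2 other normalizations, library totals, no filter or the strict filter (at least 1 CPM in 3 libraries). It was 11 with DESeq2, 2 with limma-voom, 8 at an adjusted p under 0.10, and 0 with the length and GC correction, with or without the replicate block. Leaving out 1 library or 1 mouse gave 0 to 5, and 0 to 937 over all genes (588 in the full data), so the loss of calls was of the whole table. The number called lower was 0 throughout. The replicate block gave 5 and changed the call of Col4a2, Itgav and Itgb1 as stated above and of no other member. Library totals alone moved the median of all genes from -0.01 to 0.14. Signs turned for Nid1 with the block (0.27), with limma-voom (0.29), when TERT(Low) of mouse 2 was left out (1.19) or both libraries of mouse 2 (1.12). With TERT(High) of mouse 1 left out, and without mouse 1, log2 fold changes were -1.93 and -2.32 for Col1a1, -1.45 and -1.76 for Col1a2, -0.14 and -0.08 for Col3a1, -0.12 and -0.26 for Col6a3 and -0.03 and -0.05 for Sparc, and -0.44 for Col5a1 in the first case. Agrn was at -0.08 and -0.06 after the correction without and with the block, at -0.12 when TERT(Low) of mouse 3 was left out and -0.02 without mouse 3. The correction without the block also turned Col4a3 (0.33 to -0.25), Itga4 (0.75 to -0.12), Col14a1 (0.30 to -0.15), Itga7 (0.005 to -0.13) and Itgb3bp (0.30 to -0.006). Signs over all settings were listed for 25 genes only. Fbn1 was at -0.02 when TERT(Low) of mouse 2 was left out and -0.47 without mouse 3, and Itga5 at -0.01 without mouse 3. Over all left-out libraries and mice the log2 fold changes ran up to 7.34 for Col1a1, 6.76 for Col1a2, 2.95 for Col3a1, 2.60 for Col5a1, 1.88 for Col6a3, 1.60 for Sparc, 0.93 for Itga5, 0.45 for Agrn and 3.60 for Fbn1, and down to -0.85 for Nid1. The cause of these changes was not tested, except that settings with fewer libraries have fewer degrees of freedom. Fold changes of members with about 20 counts or fewer in most libraries, such as Itgae, Lama4 and Fbn1, rest on little depth and have wide errors.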
